A study of Taeniopygia guttata with 2 samples.

Results

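The CHGA-type neuroendocrine cells of the zebra finch (Taeniopygia guttata) embryonic gonad were 99 cells of 17054, 61 of 7593 in the female library and 38 of 9461 in the male library. They were chosen from droplet barcodes with at least 2000 UMIs (counted transcript molecules) and 200 detected genes. A cell was taken if CHGA (ENSTGUG00000012606), TH (ENSTGUG00000009295) and STMN2 (ENSTGUG00000011625) together had at least 5 UMIs with at least 2 of the 3 genes detected, SOX10 had at most 1 UMI and DND1 had at most 2. The levels of these 5 genes are therefore part of the choice and are given as a description, with no test. The share of such cells was 0.803% in the female library (95% exact binomial interval 0.615 to 1.03) and 0.402% in the male library (0.284 to 0.551), and with 1 library per sex the difference had no replicate check.

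Each library came from gonads of 7 embryos of the same sex, pooled at Hamburger and Hamilton stage 28, a stage at which the study describes the gonad as undifferentiated, and the labels name no treatment and no strain. The gonads were dissociated with trypsin, so the pools held every cell type lying in or on the dissected tissue, and no cell type was sorted. Whether cells next to the gonad were carried along was not tested. Intervals below cover counting error only, and fewer embryos contributing such cells cannot be told apart from fewer cells per embryo.

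CHGA encodes chromogranin A, a core protein of dense-core secretory granules. TH encodes tyrosine hydroxylase, the rate-limiting enzyme of catecholamine synthesis, and STMN2 encodes stathmin 2, a microtubule regulator of growing axons. As background, cells with these features in an embryo include the sympathoadrenal derivatives of the neural crest: sympathetic neuroblasts, which grow axons and release noradrenaline, and chromaffin cells, which store catecholamines in granules and secrete them into blood. Both descend from SOX10-positive crest cells and Schwann cell precursors under factors such as PHOX2A, HAND2 and GATA2 or GATA3. In birds, the adrenal gland, which holds chromaffin cells, lies next to the gonad.

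Other cells of the same libraries served for comparison. SOX10-positive cells had at least 2 SOX10 UMIs, fewer than 5 UMIs of CHGA, TH and STMN2 and at most 2 of DND1 (78 cells, 43 female and 35 male). All other barcodes over the same minimum numbered 16877 (7489 female and 9388 male) and are called other cells. CHGA-type cells had a median of 13384 UMIs in the female library (2472 to 34653) and 13906 in the male library (2022 to 22367), against medians of 17294 and 15580 in female and male SOX10-positive cells and 9082 and 9001 in other cells. Summed UMIs were 870312 and 531370 in female and male CHGA-type cells, 743976 and 524632 in SOX10-positive cells, and 76777478 and 94676531 in other cells. In other cells, CYP19A1 (aromatase) had 7.71 CPM (UMIs of a gene scaled to 1000000 UMIs per sum) in female against 0.454 CPM in male barcodes, and SOX9 had 47.4 CPM in female against 130 CPM in male barcodes. Of 18 barcode sequences present in both libraries, 0 belonged to a CHGA-type cell.

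The chosen genes were strong in most cells. CHGA had 7379 CPM (7199.6 to 7562) in female CHGA-type cells against 6167 CPM (5958 to 6382) in male CHGA-type cells, TH had 2835 and 3472 CPM, and STMN2 had 3028 and 3081 CPM. Per cell, CHGA had a median of 40 UMIs (0 to 510), TH of 24 (0 to 269) and STMN2 of 25 (0 to 295), and 81 cells had all 3 genes. TAGLN3, a neuronal actin-binding protein gene that the rule did not use, had a median of 9 UMIs (0 to 30). The gate genes summed to 40 or more UMIs in 74 cells, 20 to 39 in 7, 10 to 19 in 3 and 5 to 9 in 15. Just outside the threshold stood 14 barcodes with 3 UMIs and 8 with 4, and just inside stood 1 with 5 and 6 with 6.

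Most, but not all, of the chosen cells carried the transcription factors of the lineage. Of the 99 cells, 88 had a UMI of at least 2 of PHOX2A, TBX20, GATA2, TFAP2B and ISL1, and 61 had all 5. The remaining 11 cells (7 female and 4 male) had a median of 7 gate UMIs (6 to 27), against 165 (5 to 706) in the 88. These 11 cells had 454 CPM of the collagen gene COL1A2, 154 CPM of the keratin gene KRT18 and 249 CPM of the gonadal regulator LHX9, against 51.4, 9.48 and 16.6 CPM in the 88 cells. Other cells had 471, 129 and 168 CPM of the same genes. Gonadal RNA was not confined to the 11 cells. At least 10 UMIs of 7 gonadal genes (these with EMX2, SOX9, DMRT1 and CYP17A1) were seen in 9 of the 11 and 10 of the 88. The 88 cells thus carried at least 2 of the 5 factors. These factors were listed with earlier results of these data known, so they are no independent check of the label. The 11 carried COL1A2, KRT18 and LHX9 near the level of other cells. The study's supplement plots doublets detected with Scrublet. No doublet caller was run here, and whether these barcodes held more than a single cell was not tested. Counts below were also run without the 11 cells.

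**Figure D1:**
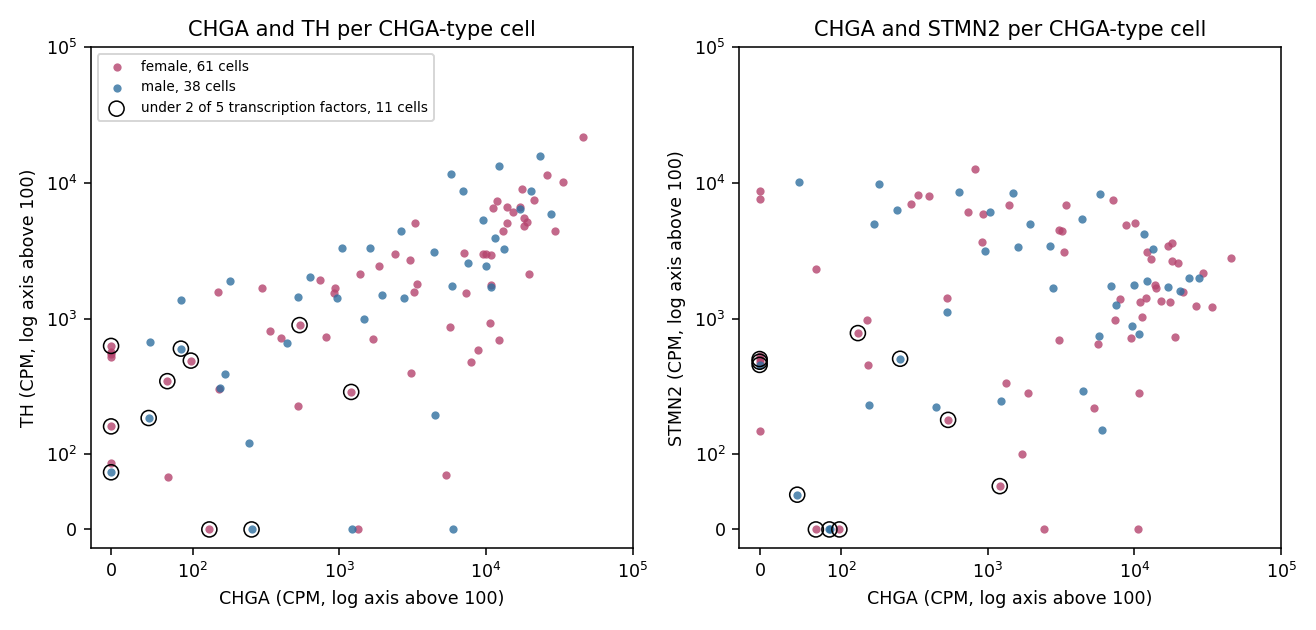
CHGA against TH (left) and CHGA against STMN2 (right) in CPM per cell on log axes, for the 99 CHGA-type cells of the female and male libraries, with 1 point per cell. Rings mark the 11 cells with under 2 of the 5 transcription factors. Their summed UMIs of CHGA, TH and STMN2 had a median of 7, against 165 in the other 88 cells.

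Tests ran on UMIs summed per library and class with edgeR's quasi-likelihood test, and p-values were adjusted by the Benjamini-Hochberg method over 8958 genes. A class had 2 libraries, 1 of each sex, and the classes of a library came from the same pool of embryos, so p-values measure the spread between those 2 pools. The cells were chosen on 3 genes measured in the same cells, with limits on SOX10 and DND1, and SOX10-positive cells were chosen on SOX10. The comparisons therefore describe which genes went with the chosen ones. Against SOX10-positive cells, 1251 genes (14.0%) were higher and 1002 (11.2%) lower in CHGA-type cells. Against other cells, 1523 genes (17.0%) were higher and 1182 (13.2%) lower. Scaling by library size alone turned this last split into 1278 higher and 1505 lower and moved the median log2 fold change of all genes from -0.03 to -0.14, so modest differences from other cells depend on the scaling. Lists of genes were not chosen blind to these data, and their counts are descriptions. A gene could pass the filter on low counts through 1 class alone. A listed gene near 0 elsewhere was then tested because that class carried it, so counts per list lean towards that class.

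Transcription factors of the sympathoadrenal lineage that passed the filter differed by a median of over 5 on the log2 scale. Of 13 in the files and 10 tested, 8 were higher and 1 lower than in SOX10-positive cells, with a median log2 fold change of 5.50 against 0.05 for all genes. All 10 tested were higher than in other cells (median 5.06 against -0.03). With no filter on low counts, 13 were tested. Of these, 8 were higher and 1 lower than in SOX10-positive cells (median 4.76), and 11 were higher than in other cells (median 4.54). PHOX2A, a homeodomain factor that switches on TH and DBH, had 851 and 796 CPM in female and male CHGA-type cells, 2.69 and 0 in SOX10-positive cells and 2.27 and 1.42 in other cells. The groups did not overlap, and the log2 fold change was 8.95 over SOX10-positive cells (SE 0.485, edgeR adjusted p = 4.6e-05) and 8.91 over other cells (SE 0.306, edgeR adjusted p = 3.03e-06).

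TBX20, a T-box factor known from heart and motor neurons, was as abundant as PHOX2A, with 1028 and 1108 CPM in female and male CHGA-type cells against 2.69 and 1.91 CPM in SOX10-positive cells and 2.77 and 2.46 CPM in other cells (log2 8.77 over other cells, SE 0.156, edgeR adjusted p = 4.51e-07). GATA2, a zinc finger factor of sympathetic neurons, had 773 and 1031 CPM, while GATA3, which serves that role in the mouse, had 0 and 1.88 CPM. TFAP2B had 884 and 1016 CPM in CHGA-type cells and 68.6 and 93.4 CPM in SOX10-positive cells, the only one of these 5 factors with more than 15 CPM in the crest class. ISL1 (287 and 333 CPM) and HAND2 (246 and 269 CPM) were higher than in either class. Thus PHOX2A, TBX20, GATA2, TFAP2B, ISL1 and HAND2 lay within 2-fold between the female and male pools, and the classes lay many fold apart. For GATA2 the exact Poisson intervals of the female and male pools did not overlap. EYA1, another listed factor, was not called against SOX10-positive cells (edgeR adjusted p = 0.686).

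Shares of cells gave the same picture at equal depth. After each cell was thinned to 2000 UMIs, which every cell reached, PHOX2A was detected in 70.7% of CHGA-type cells, 0 of 78 SOX10-positive cells (3 counts of 78 allow a share of cells with a UMI of up to 3.85%) and 0.338% of other cells. Unthinned shares were 86.9%, 2.56% and 1.45%, at median depths of 13474, 16239.5 and 9042 UMIs. TBX20 was detected in 50.5%, 1.28% and 0.397% of thinned cells, and GATA2 in 60.6%, 1.28% and 3.00%. For each of these factors the share in CHGA-type cells lay far above that in other cells, a class that also holds 14 barcodes with PHOX2A and at least 3 of the 5 factors.

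**Figure D2:**
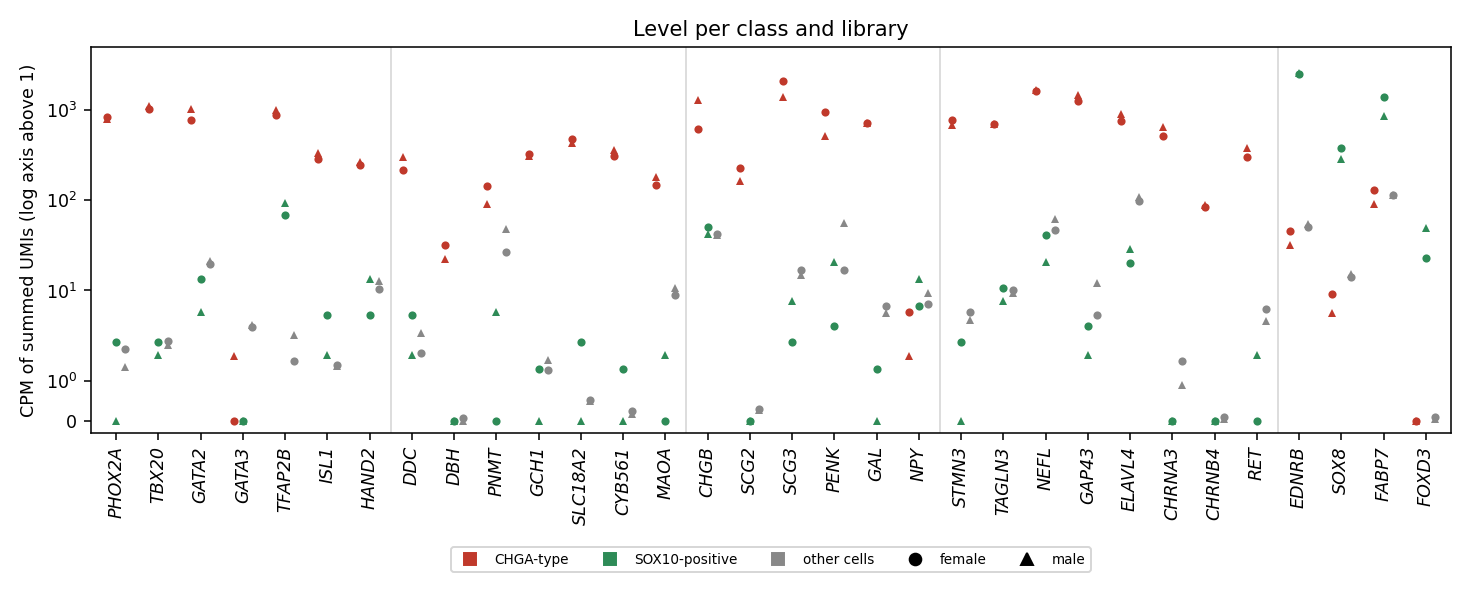
Levels in CPM on a log axis of transcription factor, catecholamine, granule, neuronal and glial genes in CHGA-type, SOX10-positive and other cells, with colours for class and marker shapes for the female and male libraries. PHOX2A (851 and 796 CPM) and TBX20 (1028 and 1108 CPM) stand far above both other classes, and EDNRB (46.0 and 32.0 CPM) far below SOX10-positive cells.

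The catecholamine pathway was expressed from precursor to vesicle, with its last steps weak. Of 11 genes tested besides TH, 8 were higher than in SOX10-positive cells and 9 higher than in other cells, none was lower, and the median log2 fold changes were 5.58 and 6.45 with zero counts set to their bounds. GCH1, which makes the cofactor of tyrosine hydroxylase, had 325 and 314 CPM in female and male CHGA-type cells, 1.34 and 0 CPM in SOX10-positive cells and 1.30 and 1.71 CPM in other cells (log2 7.82 over other cells, SE 0.220, edgeR adjusted p = 1.46e-06). DDC, which converts DOPA to dopamine, had 217 and 303 CPM against 5.38 and 1.91 CPM in SOX10-positive cells and 2.01 and 3.34 CPM in other cells. Both enzymes were thus near background outside the CHGA-type cells.

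SLC18A2, the vesicular monoamine transporter, had 486 and 429 CPM in female and male CHGA-type cells and under 3 CPM in every other class and library (log2 9.92 over other cells, SE 0.240, edgeR adjusted p = 1.26e-06). CYB561, which supplies electrons for dopamine beta-hydroxylase in granules, had 311 and 367 CPM, against 1.34 and 0 CPM in SOX10-positive cells and 0.247 and 0.158 CPM in other cells (log2 10.80, SE 0.275, edgeR adjusted p = 1.26e-06). MAOA, which degrades monoamines, had 147 and 181 CPM and was higher than in both classes.

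DBH, which converts dopamine to noradrenaline, was low but specific, with 32.2 and 22.6 CPM in female and male CHGA-type cells, 0 UMIs in SOX10-positive cells and 0.0651 and 0 CPM in other cells. It was at least 12.1-fold higher than in SOX10-positive cells, taking 3 UMIs as the floor over that class. A UMI of DBH was seen in 29.3% of CHGA-type cells and 0.0296% of other cells unthinned. PNMT, which makes adrenaline from noradrenaline, had 146 and 90.3 CPM and was called against both classes, but 102 of its 127 female UMIs (80.3%) lay in 1 cell. It was detected in 22.2% of CHGA-type cells and 13.6% of other cells unthinned, so few CHGA-type cells carried it. The noradrenaline transporter gene SLC6A2 had 62.0 and 48.9 CPM, above other cells (log2 6.45, edgeR adjusted p = 6.88e-05). It was not called against SOX10-positive cells with 25.5 and 15.3 CPM (log2 1.34, edgeR adjusted p = 0.0799). With library as a replicate block it was called there too (log2 1.37, edgeR adjusted p = 0.0306).

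Most granule protein genes were higher in CHGA-type cells. All 10 granule genes tested were higher than in SOX10-positive cells (median log2 3.40 with bounds) and 9 were higher than in other cells (median 4.29). SCG3, which binds chromogranin A to the granule membrane, had 2116 and 1404 CPM in female and male CHGA-type cells, 2.69 and 7.62 CPM in SOX10-positive cells and 16.9 and 15.0 CPM in other cells (log2 6.89 over other cells, SE 0.263, edgeR adjusted p = 4.57e-06). SCG2, the precursor of secretoneurin, had 228 and 164 CPM and 0 UMIs in SOX10-positive cells, at least 86.0-fold higher. CHGB had 625 and 1289 CPM in female and male CHGA-type cells, against 51.1 and 41.9 CPM in SOX10-positive cells. The male value rested in part on 1 cell, which held 343 of 685 UMIs (50.1%). The prohormone convertase gene PCSK2 was the exception, with 26.4 and 22.6 CPM and no call against other cells (edgeR adjusted p = 0.563).

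Genes of vesicle release followed, with 11 of 12 tested higher than in SOX10-positive cells and 11 higher than in other cells. SYT4 had 372 and 534 CPM in female and male CHGA-type cells. SYT1, a calcium sensor of fusion, had 329.8 and 224 CPM. Each was under 20 CPM in the 4 sums of the comparison classes. SNAP25, a core fusion protein, had 109 and 77.2 CPM against 1.34 and 0 CPM in SOX10-positive cells and 0.274 and 0.243 CPM in other cells. DOC2B, a calcium-dependent release factor found by its fold change rather than listed, had 186 and 243 CPM and was at least 87.8-fold higher than in SOX10-positive cells.

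Neuronal cytoskeleton and RNA-binding genes were higher in 17 of 18 tested, against SOX10-positive cells as against other cells. NEFL, a neurofilament gene, had 1627 and 1667 CPM in female and male CHGA-type cells, 41.7 and 21.0 CPM in SOX10-positive cells and 47.2 and 61.7 CPM in other cells. GAP43, a growth cone protein gene, had 1259 and 1472 CPM against 4.03 and 1.91 CPM in SOX10-positive cells and 5.29 and 12.03 CPM in other cells (log2 7.40 over other cells, SE 0.410, edgeR adjusted p = 2.39e-05). STMN3 had 780.2 and 687 CPM, and RTN1 had 329 and 269 CPM, at least 129-fold higher than in SOX10-positive cells. MAP2 was the exception among these genes, with 207 and 152 CPM below 384 and 477 CPM in SOX10-positive cells (log2 -1.32, SE 0.217, edgeR adjusted p = 0.00481).

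All 5 cholinergic genes tested were higher than in both classes, although the transmitter enzyme was nearly absent. CHRNA3, a subunit of the ganglionic nicotinic receptor, had 523 and 649 CPM in female and male CHGA-type cells, 0 UMIs in SOX10-positive cells (at least 241-fold) and 1.63 and 0.877 CPM in other cells (log2 8.97 over other cells, SE 0.357, edgeR adjusted p = 1.72e-05). CHRNB4, its partner subunit, had 83.9 and 88.5 CPM and 0 UMIs in SOX10-positive cells. SLC5A7, the choline transporter, had 157 and 94.1 CPM, while CHAT, the synthetic enzyme, had 2.30 and 0 CPM and SLC18A3, the vesicular acetylcholine transporter, had 0 UMIs. Receptor subunits for incoming acetylcholine were therefore counted without the genes that make it. Of 5 ion channel genes tested, 4 were higher than in SOX10-positive cells and 5 higher than in other cells, led by the L-type calcium channel gene CACNA1C with 108 and 117 CPM.

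Receptor genes were divided. Of 17 tested, 9 were higher and 4 lower than in SOX10-positive cells, with a median log2 fold change of 0.82. RET, the receptor of the glial cell line-derived neurotrophic factor family, had 301 and 382 CPM in female and male CHGA-type cells, 0 and 1.91 CPM in SOX10-positive cells and 6.17 and 4.63 CPM in other cells. Its co-receptors split, with GFRA3 (73.5 and 62.1 CPM) higher and GFRA1 (71.2 and 58.3 CPM) and GFRA2 (13.8 and 20.7 CPM) lower than in SOX10-positive cells. CXCR4, a chemokine receptor of migrating crest cells, had 238 and 284 CPM against 16.1 and 21.0 CPM in SOX10-positive cells (log2 3.75, SE 0.220, edgeR adjusted p = 6.48e-05). CHL1, a neural cell adhesion gene (77.0 and 88.5 CPM), was lower than in SOX10-positive cells (382 and 457 CPM).

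Among neuropeptides, GAL and PENK stood out. GAL (galanin) had 732 and 717 CPM in female and male CHGA-type cells, 1.34 and 0 CPM in SOX10-positive cells and 6.75 and 5.62 CPM in other cells (log2 6.97 over other cells, SE 0.187, edgeR adjusted p = 1.26e-06), and a UMI was seen in 66.7% of cells. PENK (proenkephalin) had 952.5 and 523 CPM but came from 36 of 99 cells. NPY, the peptide of sympathetic neurons, had 5.75 and 1.88 CPM, no more than the 7.07 and 9.31 CPM of other cells. ADCYAP1 (PACAP) had 19.5 and 15.1 CPM, far below 425 and 381 CPM in SOX10-positive cells (log2 -4.59, SE 0.285, edgeR adjusted p = 9.11e-05). The peptide list as a whole had 2 higher, 1 lower and 2 not called of 5 tested against SOX10-positive cells.

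Glial and crest genes were lower than in SOX10-positive cells in all 8 tested (median log2 -3.84 with bounds). SOX10 separated these 2 classes by choice, so lower levels of genes that go with SOX10 follow from it, and the counts are a description. With no filter on low counts, 8 of 11 tested were lower and none was higher. EDNRB, the endothelin receptor of crest cells, had 46.0 and 32.0 CPM in female and male CHGA-type cells, against 2544 and 2573 CPM in SOX10-positive cells and 51.2 and 54.9 CPM in other cells (log2 -6.07 against SOX10-positive cells, SE 0.165, edgeR adjusted p = 5.25e-06). FOXD3, PAX3 and CDH19 had 0 UMIs in CHGA-type cells and were at least 15.8-fold, 9.21-fold and 12.9-fold lower than in SOX10-positive cells. SPON1, a secreted matrix protein gene named by its fold change, had 26.4 and 18.8 CPM against 1441 and 1327 CPM in SOX10-positive cells. Against other cells 7 of these 8 genes were not called. EDNRB and FABP7 (132 and 90.3 CPM, against 114 and 114 CPM in other cells) were among these 7.

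**Figure D3:**
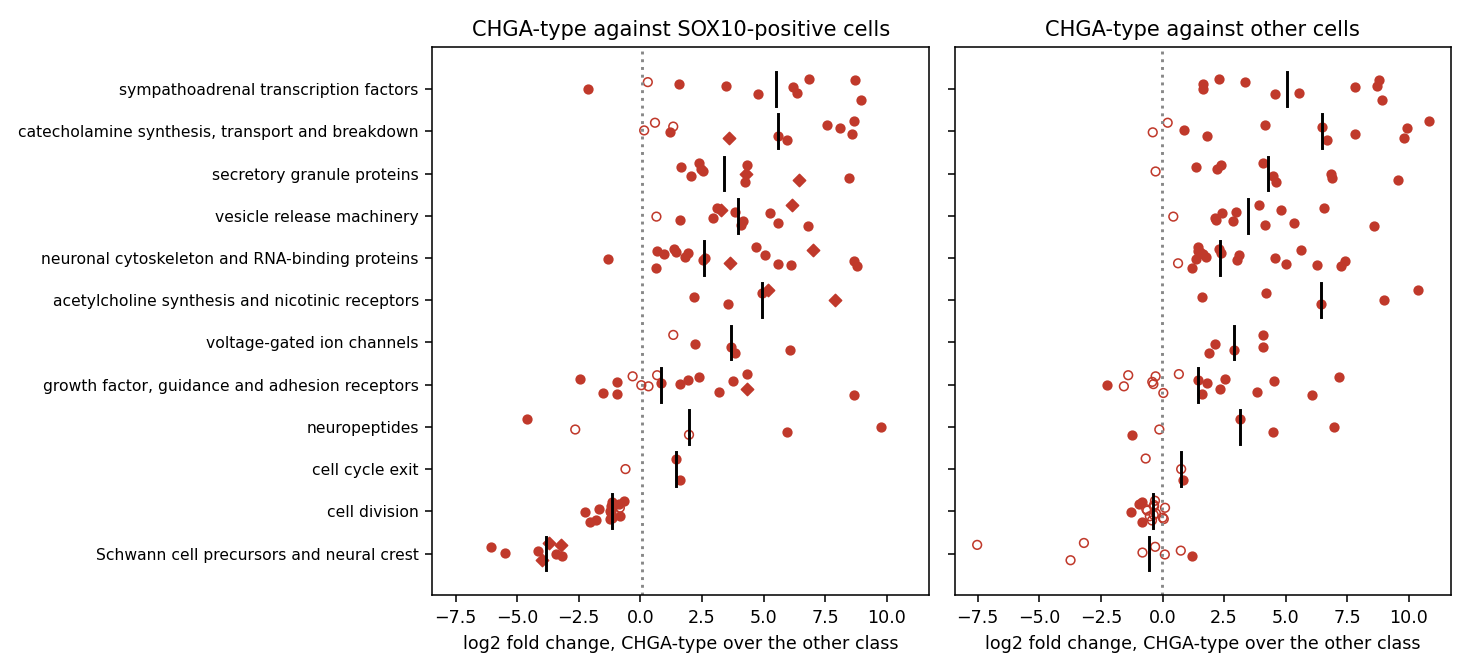
Log2 fold change of CHGA-type cells over SOX10-positive cells and over other cells for each gene of the lists, with 1 symbol per gene. Filled symbols passed an edgeR adjusted p of 0.05, open symbols did not, diamonds are bounds where a class had 0 UMIs, black bars are list medians and dotted lines the median of all genes (0.05 and -0.03).

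Markers of several gonadal cell types were lower than in other cells, a class that includes those types. All 7 germ cell genes tested, 3 of 4 epithelial, 3 of 4 interstitial, 2 of 3 steroidogenic and both hemoglobin genes were lower than in other cells, while none of the supporting, endothelial and macrophage genes was called. With library as a replicate block, both supporting cell genes, SOX9 (log2 -1.40, edgeR adjusted p = 0.01004) and DMRT1 (log2 -1.46, edgeR adjusted p = 0.00293), and 1 of 2 macrophage genes were also lower than in other cells. DAZL and DDX4 had 0 UMIs in female CHGA-type cells. Summed over 8 germ cell genes, levels were 26.4 and 58.3 CPM in female and male CHGA-type cells against 637 and 748 CPM in other cells. These 8 genes include DND1, which the rule held to at most 2 UMIs in CHGA-type cells. Other cells had no such limit and include germ cells. Lower germ cell genes are thus in part built into the choice and are a description. The 4 epithelial genes summed to 126 and 104 CPM against 689 and 621 CPM, and the 2 hemoglobin genes to 426 and 597 CPM against 23933 and 19277 CPM. The 4 endothelial genes summed to 50.6 and 32.0 CPM against 52.6 and 67.2 CPM, close to other cells in the female library. Sums of the gonadal marker lists were no lower than in SOX10-positive cells, except hemoglobin in the female library (426 against 629 CPM). Against SOX10-positive cells, the epithelial genes EMX2 and LHX9 were called higher, and both calls were lost without the 11 cells that carried gonadal genes. The germ cell gene RBM46 (9.19 and 11.3 CPM in female and male CHGA-type cells against 1.34 and 1.91 CPM in SOX10-positive cells, log2 2.58, edgeR adjusted p = 0.0219) and the endothelial gene CDH5 (16.1 and 18.8 CPM against 1.34 and 0 CPM, log2 4.36, edgeR adjusted p = 0.0120) were higher too, and each list kept 1 such call without the 11 cells. These calls were 2 of 4 epithelial, 1 of 7 germ cell and 1 of 3 endothelial genes tested, where 14.0% of all genes were called higher. No result about a list is read from so few calls. With the replicate block, the steroidogenic genes NR5A1 (log2 2.17, edgeR adjusted p = 0.0366) and CYP17A1 (log2 2.18, edgeR adjusted p = 0.00084) and 1 macrophage gene were also higher than in SOX10-positive cells.

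Cell division genes were lower than in SOX10-positive cells in 14 of 16 tested, with a median log2 fold change of -1.17. MKI67 had 102 and 113 CPM in female and male CHGA-type cells, against 461 and 362 CPM in SOX10-positive cells (log2 -2.03, SE 0.169, edgeR adjusted p = 0.000252) and 195 and 211 CPM in other cells. TOP2A had 144 and 156 CPM against 594 and 379 CPM in SOX10-positive cells. In CHGA-type cells, 1 female cell held 62 of 125 TOP2A UMIs and 1 male cell 33 of 83. Against other cells 4 of the 16 were lower, and 7 when libraries were scaled by size alone. Without the tenth of cells with the most UMIs in each class, 11 of 16 were lower than in SOX10-positive cells, and with cells thinned to 2000 UMIs 2 of the 8 that passed the filter were. The cell cycle inhibitor gene CDKN1B ran the other way, with 271 and 179 CPM against 68.6 and 74.3 CPM in SOX10-positive cells (log2 1.60, SE 0.234, edgeR adjusted p = 0.00297).

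Per cell, at least 2 UMIs of the 16 division genes at 2000 UMIs were seen in 30 of 99 CHGA-type cells (30.3%, exact binomial interval 21.5 to 40.4), 27.9% of female and 34.2% of male cells. The share was 65.4% in SOX10-positive cells (53.8 to 75.8) and 46.8% in other cells (46.0 to 47.6). At 4 or more UMIs the shares were 17.2%, 46.2% and 25.2%, and without thinning 78.8%, 92.3% and 85.0%. The order of the classes was the same at each setting, and cells are not replicates, so no test was run.

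The 88 cells with the lineage factors differed among themselves in GAP43 and STMN2. GAP43 was at 0 UMIs in 21 cells, 1 or 2 in 9, 3 to 5 in 6 and 6 or more in 52. A split at 3 UMIs, chosen after these values were seen and given with no test, made 58 GAP43-high cells (35 female and 23 male, median 15801.5 UMIs) and 30 GAP43-low cells (19 female and 11 male, median 11468 UMIs). With 20 CPM added, 135 of 4783 genes (2.82%) were past 2-fold higher in GAP43-high cells in both libraries and 69 (1.44%) past 2-fold lower. Since GAP43 was read from the same cells, genes that vary with it or with depth follow by construction.

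Levels of several neuronal genes were higher in GAP43-high cells. STMN2 had 4129 and 4140 CPM in female and male GAP43-high cells, against 1034 and 850 CPM in GAP43-low cells. The rule used STMN2, so its values are a description and are not counted in the list below. STMN3 had 1118 and 943 CPM against 130 and 142 CPM, ELAVL4 had 1037 and 1234 CPM against 295 and 236 CPM, and RTN1 had 463 and 377 CPM against 67.6 and 28.3 CPM. Among lists, 6 of 16 neuronal genes were past the fold and higher, and none was lower.

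GAP43-low cells carried more of another set. TBX20 had 673 and 811 CPM in female and male GAP43-high cells, against 2435 and 2719 CPM in GAP43-low cells. MYT1, a zinc finger factor of differentiating neurons, had 286 and 410 CPM against 1425 and 1530 CPM, and SRRM4, a neuronal splicing regulator, had 120 and 97.0 CPM against 976 and 529 CPM. GAL had 609 and 517.5 CPM against 1363 and 1785 CPM. TBX20 and the neuropeptide gene GAL thus lay on the same side, away from STMN3 and RTN1.

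Of 10 granule and 10 catecholamine genes, 2 in each list were past the fold and higher in GAP43-high cells and none was lower. These were CHGB and SCG5, and MAOA and PNMT, of which CHGB and PNMT each had many UMIs in 1 cell. The median log2 ratios in the female and male libraries were 1.02 and 0.22 for the granule list and 0.67 and 0.53 for the catecholamine list, against 0.03 and -0.04 for all genes. CHGA had 8528 and 6857 CPM in female and male GAP43-high cells, against 6949 and 6883 CPM in GAP43-low cells, and PHOX2A had 809 and 871 CPM against 1305 and 944 CPM. TH had 3694 and 3781 CPM against 1411 and 4060 CPM. In the 11 male GAP43-low cells, 2 cells held 237 and 108 of 430 TH UMIs, and the male value was 2125 CPM without the higher of them and 1044 CPM without both.

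**Figure D4:**
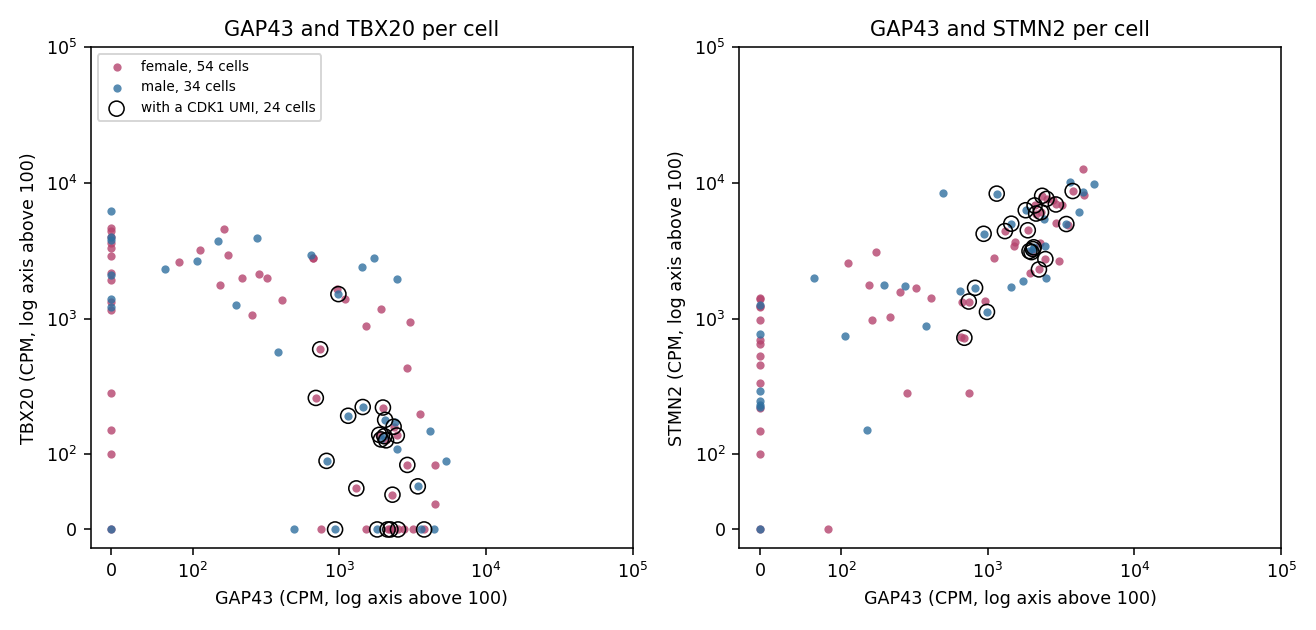
GAP43 against TBX20 (left) and GAP43 against STMN2 (right) in CPM per cell on log axes for the 88 CHGA-type cells with at least 2 of the 5 lineage factors, coloured by library. Rings mark the 24 cells with a CDK1 UMI, all of them GAP43-high.

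Division genes lay on the GAP43-high side. CDK1 had 236 and 205 CPM in female and male GAP43-high cells and 0 UMIs in GAP43-low cells, with a UMI in 24 of 58 and 0 of 30 cells unthinned (3 counts of 30 allow a share of up to 10.0%) and in 12 and 0 cells after thinning, and CENPF had 191 and 164 CPM against 0 UMIs. TOP2A had 186 and 189 CPM against 4.83 and 9.44 CPM. Of 10 division genes tested, 9 were past the fold and higher. At 2000 UMIs per cell, 21 of 58 GAP43-high cells (36.2%, 24.0 to 49.9) and 6 of 30 GAP43-low cells (7.71% to 38.6%) had at least 2 UMIs of the division genes, and these intervals overlap. At 4 or more UMIs the shares were 22.4% and 3.33%.

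CHGA, TH and STMN2 chose the cells, so their correlations among these cells are a description of values the rule used. Over the 88 cells, the genes whose CPM ranked most like CHGA were EPAS1 (Spearman 0.80, 0.83 in female and 0.75 in male cells), TRPC5 (0.76), GCH1 (0.74), SLC18A2 (0.74) and TH (0.72). EPAS1 encodes HIF-2alpha, an oxygen-sensing factor of chromaffin and paraganglion cells in mammals, and GCH1, SLC18A2 and TH belong to the catecholamine pathway. PENK was at 0.56, and the lowest were TUBA1B (-0.58) and TMSB4X (-0.57), with SOX11 at -0.56. STMN2 ranked most like GAP43 (0.84), STMN3 (0.83) and RTN1 (0.72). It was lowest with HIGD1A (-0.62), a nuclear gene of a mitochondrial protein, the translation elongation factor gene EEF1A1 (-0.60) and TBX20 (-0.59). Ribosomal protein genes such as RPS15 (-0.57) and RPL21 (-0.57) followed.

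CHGA and STMN2 themselves had a Spearman correlation of -0.16. These values describe cells of 2 libraries that share their depth, so no p is given. CHGA had a correlation of 0.00 with a cell's total UMIs and STMN2 one of 0.25.

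Between the sexes, few genes of the CHGA-type cells differed past 2-fold. Of 4062 genes with at least 50 CPM in a library, 30 (0.739%) were past 2-fold higher in female cells and 64 (1.58%) past 2-fold higher in male cells, with 5 CPM added. None of the transcription factor, catecholamine, vesicle release, neuronal, receptor and division genes tested was past 2-fold, and of the granule genes only CHGB was, at 625 CPM in female cells against 1289 CPM in male cells. Without the cell with the most CHGB UMIs in each library, the values were 510 CPM in female cells against 672 CPM in male cells. Among markers of gonadal cell types, the epithelial gene LHX9 (50.6 and 20.7 CPM in female and male cells) was past 2-fold higher in female cells, and the supporting cell genes SOX9 and DMRT1 (13.8 and 50.8 CPM for DMRT1) past 2-fold higher in male cells. In the 88 cells with the lineage factors, LHX9 had 19.03 CPM in female cells against 12.6 CPM in male cells (15 and 6 UMIs), DMRT1 had 10.1 CPM against 25.2 CPM (8 and 12 UMIs) and SOX9 had 10.1 CPM against 37.7 CPM (8 and 18 UMIs). Sex and library cannot be told apart here, and no test was possible.

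The genes with the largest ratios often came from very few cells. HAO2 had 80.4 CPM in female cells against 3.76 CPM in male cells, but 56 of its 70 female UMIs (80.0%) lay in 1 cell. PRLH, the gene of prolactin-releasing hormone, had 12.6 CPM in female cells against 175 CPM in male cells, with 84.9% of the male UMIs in 2 of 38 cells. GPM6A and GABRE were spread more widely. GPM6A, a neuronal membrane glycoprotein gene, had 83.9 CPM in female cells against 26.3 CPM in male cells, with a UMI in 29 of 61 and 12 of 38 cells. GABRE, a GABA-A receptor subunit gene, had 128 CPM in female cells against 45.2 CPM in male cells, with a UMI in 32 of 61 and 12 of 38.

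SOX9, a supporting cell factor, had 10.3 CPM in female CHGA-type cells against 58.3 CPM in male CHGA-type cells, while other cells had 47.4 CPM in female against 130 CPM in male barcodes. In barcodes of at most 100 UMIs, which hold free RNA, SOX9 had 39.1 CPM in female against 93.4 CPM in male barcodes, the same order. The part of free RNA in this difference was not tested.

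**Figure D5:**
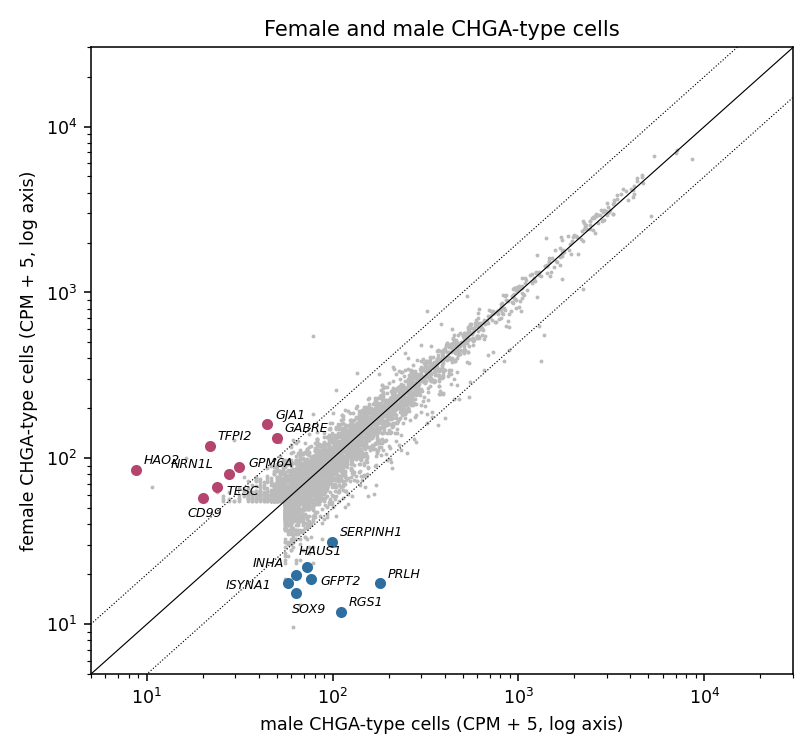
Level in female (vertical axis) against male (horizontal axis) CHGA-type cells in CPM with 5 added, on log axes, for genes of at least 50 CPM in a library, with 1 point per gene and the genes of the rule left out. Dotted lines mark 2-fold, and the 8 genes named for each sex are coloured, with HAO2 (80.4 CPM in female cells against 3.76 CPM in male cells) and PRLH (12.6 and 175 CPM) farthest out.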

How the data were processed

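Gonadal cells of 1 female and 1 male pool were captured with the 10x Chromium 3′ chemistry. The authors deposited raw UMI counts per gene and barcode, made with Cell Ranger 5.0.0 against an Ensembl annotation of the zebra finch, for 20511 genes of which 11356 carry a symbol. The barcode suffixes 1 (male) and 2 (female) were read from the study's supplement and checked with CYP19A1 and SOX9 levels in other cells. The libraries held 98701138 (female) and 124217899 (male) UMIs. Columns of samples outside the series numbered 0.

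Cells, classes and gates were as given in the report, and the members and gene lists were chosen with earlier results of these data known. Counts were summed per library and class and tested with edgeR 4.0.16 in R 4.3.3 (TMM scaling, filterByExpr, quasi-likelihood test, common dispersion 0.0241), with adjusted p at most 0.05 as the threshold. The SE beside a log2 fold change was derived from the test, as the absolute log2 fold change over the square root of its F statistic. A fold against a class at 0 UMIs was computed against 3 UMIs over the class. Female and male cells, and GAP43-high and GAP43-low cells, were compared by CPM with exact Poisson intervals. Shares had exact Clopper-Pearson intervals at 95%, and for a share of 0 the limit given is 3 counts of the total. Named genes were those of the lists, the 10 with a symbol and the largest fold change in each direction among called genes with at least 50 CPM, and the 8 largest female to male ratios each way with separate intervals. GAP43-split and per-cell correlation examples were chosen after their values were seen, as were the alternatives without the 11 cells, without the cells with the most TH or CHGB UMIs, and for the GAP43 split.

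The classes of a library came from the same pool of embryos, so library paired them: female to male log2 ratios of CHGA-type and SOX10-positive, CHGA-type and other, and SOX10-positive and other cells correlated across genes at 0.17, 0.39 and 0.25. Alternatives were DESeq2 1.42.0, RLE and library size scaling, no filter, library as a block, other gates, thinning to 2000 UMIs, removal of the top 10% of cells by UMIs, and subtraction of free RNA (barcodes of at most 100 UMIs) at 5%. Scripts used Python 3.11.15, numpy 2.4.6, scipy 1.17.1, pandas 2.3.3 and matplotlib 3.10.9. The edgeR step was tested on simulated data. Against SOX10-positive cells it called 155 of 200 genes changed by a log2 of 2 and 53 of 200 changed by a log2 of 1, in 8963 genes. It also called 3 unchanged genes in the first case and 6 in the second. The simulated sums were independent and had the common dispersion for every gene, unlike the data, where library paired the classes. No promoter or protein sequences were used here. A few genes of the lists enter the counts but are not reported here by name.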

Additional observations from a re-analysis of the deposited data

Results flagged for a closer look

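SST (somatostatin) had 20.7 CPM in male CHGA-type cells and 0 UMIs in female ones, against 4.70 CPM in male and 14.7 CPM in female other cells, so the libraries pointed in opposite directions. The difference was not tested, and 10 of the 11 male UMIs lay in 1 cell.

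Outside the rule, 14 barcodes (11 female and 3 male) carried PHOX2A and at least 3 of the 5 lineage factors. Of these, 10 had at most 2 UMIs of CHGA, TH and STMN2 together, and 0 were SOX10-positive cells.

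A further 84 barcodes (48 female and 36 male) had 5 or more TH UMIs (median 7, at most 27) and no CHGA or STMN2. They had 661 CPM of CYP17A1, an enzyme of steroid synthesis, and 199 CPM of DMRT1, against 231 and 99.3 CPM in other cells. TH UMIs were thus also counted in barcodes without the other genes of the CHGA-type rule.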

How the results depend on the processing

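The number of cells in the gate ran from 81 to 121 over the gates and UMI minimums tried, and the female share stayed above the male share in each. Thinning to 2000 UMIs left 231 genes higher and 166 lower than in SOX10-positive cells, and 356 higher and 244 lower than in other cells, out of 2601 genes that passed the filter. Without the 11 cells that had under 2 of the 5 lineage factors, 1268 genes were higher and 1083 lower than in SOX10-positive cells, and 1642 higher and 1461 lower than in other cells. Every other alternative also stayed within 1.5 times of the counts in both directions. With library as a replicate block, which pairs the classes, 1442 and 1153 genes were called against SOX10-positive cells and 1828 and 1572 against other cells, and the block moved no count over all genes by over 1.5 times. Within lists it took the genes lower than in other cells to 3 receptor genes, against 1 without it, and to both supporting cell genes, against 0, and the steroidogenic genes higher than in SOX10-positive cells to 2 of 3, against 0. Among the named genes that were called no direction was reversed, and leaving out either library, which leaves a value without a test, moved no sign. In 31 comparisons of named genes, 0 of them called, the sign differed between the libraries. SST against other cells was among these, at 1.41 on the log2 scale without the female and -1.98 without the male library. Without 1 library a class is left with 1 sum, so no count of calls was made there. Among 360 comparisons of named genes, the block added 24 calls and took none away, and DESeq2 added 7 and took 3 away. Over all 8958 genes, DESeq2 called 1381 higher and 1201 lower than in SOX10-positive cells. Against other cells it called 1844 higher and 1304 lower.

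Past 2-fold between the sexes, 17 and 36 genes were higher in female and male cells with 20 CPM added, 46 in female with 1 CPM added, 125 and 170 with a minimum of 20 CPM, 12 and 27 with a minimum of 100 CPM, and 48 in female without the tenth of cells with the most UMIs. These counts follow the pseudocount and minimum by construction. The share with division UMIs was 58.6% at 1 UMI, 17.2% at 4 UMIs and 78.8% as deposited. For the GAP43 split, 214 genes were higher with 10 or more against 0 UMIs, and 41 were lower with a split on thinned UMIs. The sums of CHGA-type cells limit precision, since 3 UMIs correspond to 3.45 CPM in female CHGA-type cells against 5.65 CPM in male ones.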

Other observations

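Genes named by the size of their fold change alone, outside the lists, included the following. CACNG2, an auxiliary subunit of glutamate receptors, had 138 and 211 CPM in female and male CHGA-type cells and 0 UMIs in SOX10-positive cells, at least 70.0-fold higher. SRRM3, a regulator of neuronal microexon splicing, had 129 and 111 CPM (at least 51.6-fold), and ST18, a zinc finger factor of the MYT1 family, had 96.5 and 97.9 CPM (at least 41.0-fold). On the lower side stood FSTL3, a follistatin-like activin inhibitor gene with 0 UMIs in CHGA-type cells against 143 and 101 CPM in SOX10-positive cells (at least 58.6-fold lower), and PMP2, a peripheral myelin protein gene with 5.75 and 0 CPM against 206 and 143 CPM (log2 -5.72, edgeR adjusted p = 0.000889).

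PENK was uneven among the CHGA-type cells that carried it. It had 829 UMIs in 19 female and 278 UMIs in 17 male cells, and the highest female cell held 160 of them and the highest male cell 98.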
